A study of Saccharomyces cerevisiae with 12 samples.

Results

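Sulfate uptake and reduction in Saccharomyces cerevisiae is represented here by 10 genes, chosen by name for their place in the route from sulfate to sulfide, with earlier results of these data known. They are the sulfate transporter genes SUL1 and SUL2, the reduction genes MET3, MET14, MET16, MET5 and MET10, the nucleotidase gene MET22, and the sirohaem synthesis genes MET1 and MET8. Each had 1 single-gene probe set, so they make up 10 of the 5449 genes of this yeast named on the array. RNA came from 12 cultures, each hybridised to its own one-colour Affymetrix array: 1 array each of 8 homozygotes obtained from an evolved strain, 2 arrays of that evolved strain and 2 arrays of the parental strain. The homozygotes are separate strains, so their spread holds strain and culture differences together. All cultures grew in YPX medium at 4%, read here as 4% xylose because the labels do not spell out YPX. They started at an optical density of 0.1, grew at 35 °C and 200 rpm, and were collected at 25 h. The series concerns improved use of xylose, a 5-carbon sugar. No alleles, ploidy or number of evolved clones were given in the sources used here.

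Yeast takes up sulfate through the permeases Sul1 and Sul2 and activates it in a pair of ATP-consuming steps, catalysed by Met3 and Met14. Met16 then reduces the activated sulfate to sulfite, and the sulfite reductase made of Met5 and Met10 reduces sulfite to sulfide, from which homocysteine, methionine and cysteine are made. Sulfite reductase carries sirohaem, a haem-like cofactor that Met1 and Met8 make from a haem precursor. In laboratory yeast these genes are known to be turned on by the transcription factor Met4 and its partners when sulfur amino acids run short.

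The arrays were close in scale. The median gene had a signal of 486.6 to 507.4 intensity units in homozygotes, 503.8 and 504.0 in evolved arrays and 505.0 and 519.0 in parental arrays, while the background, taken from S. pombe probe sets, was 18.7 to 19.6. Precision is limited by the number of arrays. The evolved arrays lay unusually close to each other, with a median absolute log2 difference of 0.0589 over all genes, against 0.0807 to 0.175 for the 28 pairs of homozygotes and 0.221 for the parental pair, so whether they vary as separate cultures do is uncertain. Signal of 16 rRNA control probe sets was 11.68 ± 0.12 on the log2 scale (SD, n = 8) in homozygotes, 11.62 ± 0.04 (n = 2) in evolved arrays and 12.03 ± 0.02 (n = 2) in parental arrays. It was thus higher in both parental arrays than in all others, while evolved arrays lay within the range of homozygotes. The part of this rRNA signal in the results was not tested. Of the genes that mark haploid cells 6 were tested, with signals between 25.6 and 128.9 over all arrays. STE3 was dim, at 25.6 and 42.1 in parental arrays. Among all tested genes 31.2% were called in homozygotes against parental arrays (limma, adjusted p under 0.05), 13.2% as higher and 18.0% as lower. In homozygotes against parental arrays STE3 rose and STE2 fell, where 0 to 1 rose and 0 to 2 fell with 1 array left out.

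The first comparison asked how the homozygotes differ from the parental strain. Genes for sulfate uptake, activation and reduction and for sirohaem synthesis were higher in the homozygotes: 8 of the 10 genes rose and none fell at an adjusted p under 0.05 (limma, Benjamini-Hochberg over 5352 tested genes). Over all tested genes 31.2% were called, 13.2% as higher and 18.0% as lower. SUL1 and MET22 did not pass the test. The median log2 change of the 10 genes was 1.03, against -0.04 over all tested genes, and 7 of them rose at least 2-fold, as did 1.21% of all tested genes. All 8 homozygotes lay above both parental arrays for the 8 genes that rose, a separation seen in that direction for 12.5% of tested genes. The count of 8 also held with any single array left out, without both evolved arrays, and without homozygotes 5 and 6, whose rRNA signal was nearest to the parental level. Leaving out homozygotes 5 and 6 sets the remaining homozygotes further from the parental rRNA level, so that fit is no test of rRNA. In RNA of a whole culture, more cells that express a gene and more RNA per cell cannot be told apart.

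The second comparison set the evolved strain, from which the homozygotes came, against the same 2 parental arrays. In evolved against parental arrays 7 of the 10 genes rose and none fell. Of all tested genes 8.41% were called, 3.20% as higher and 5.21% as lower. The 3 that did not pass were SUL1, MET22 and MET8. The median log2 change was 0.91, against -0.01 over all tested genes, and both evolved arrays lay above both parental arrays for all 10 genes, as they did for 23.8% of tested genes. This comparison rests on few arrays: of the 10 genes 4 were called without evolved array 1 and 3 in a fit to the parental and evolved arrays alone. Over all genes the 450 calls became 118 and 153 without evolved array 1 and 2, and 863 without parental array 2. The last comparison, homozygotes against evolved arrays, called none of the 10 genes and 0% of all tested genes by limma. At an unadjusted p under 0.05 it held SUL2 and MET14, while 929 genes (17.4%) passed that limit overall. With arrays weighted by the spread of their group, 1549 genes and 4 of the 10 were called. Each pair of these comparisons shares the arrays of 1 group, so their values stand side by side and are not independent.

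**Figure D1:**
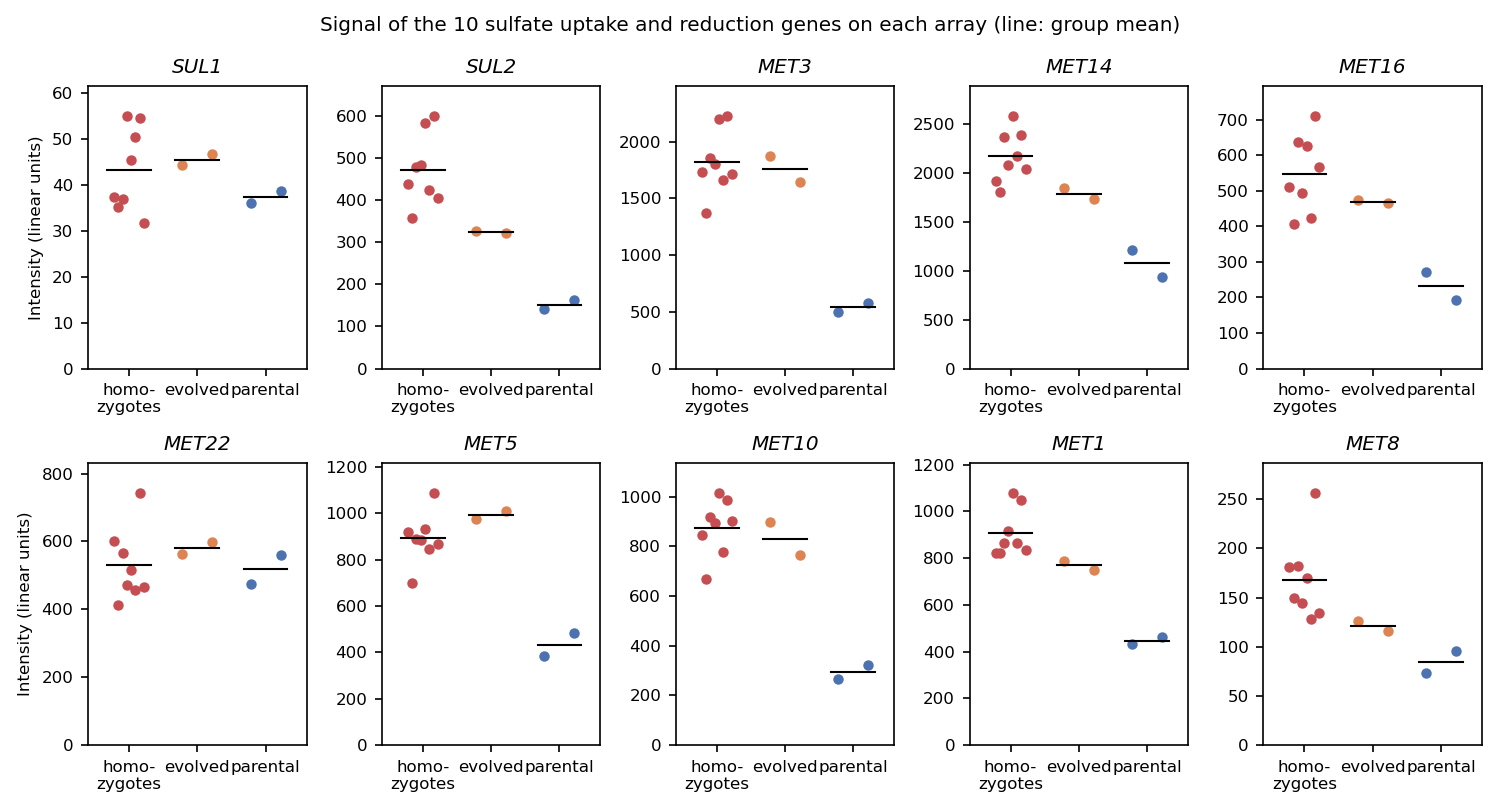
Intensity (linear units, axis from 0) of each of the 10 genes on every array, by strain group, with a line at the group mean. Homozygotes (n = 8) lie above both parental arrays (n = 2) in every panel but those of SUL1 and MET22, and both evolved arrays (n = 2) lie above both parental arrays in all panels.

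Of the transporter genes, SUL2 rose and SUL1 did not pass the test. SUL2 encodes a high-affinity sulfate permease. Its signal ran from 358.8 to 600.0 in homozygotes with a median of 458.7, was 327.8 and 323.0 in evolved arrays, and was 140.8 and 163.7 in parental arrays. The 3 groups did not overlap, with homozygotes highest and parental arrays lowest. SUL2 rose 3.07-fold in homozygotes against parental arrays (log2 change 1.62 ± 0.16, SE, adjusted p = 1.4e-05, limma) and 2.14-fold in evolved against parental arrays (1.10 ± 0.20, adjusted p = 0.00443). Without evolved array 1 the change in evolved arrays was 1.09 (adjusted p = 0.0512). Between homozygotes and evolved arrays the log2 change was 0.52 ± 0.16 (limma adjusted p = 0.175).

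SUL1 encodes the other high-affinity permease, and its probe set was dim. Its signal was 31.7 to 54.9 in homozygotes with a median of 41.3, 44.2 and 46.7 in evolved arrays, and 35.9 and 38.6 in parental arrays. The lowest homozygote was 1.66 times its array's background, and homozygotes fell both below and above the parental pair. The log2 change was 0.19 in homozygotes (95% interval -0.23 to 0.61, limma adjusted p = 0.487) and 0.29 in evolved arrays (-0.24 to 0.82, adjusted p = 0.522), both against parental arrays. The first interval leaves out a rise in signal as large as that of SUL2. Whether so dim a probe set could show such a rise was not tested.

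Both activation genes rose. MET3 encodes ATP sulfurylase, which joins sulfate to ATP. Its signal ran from 1371 to 2223 in homozygotes with a median of 1766, was 1873 and 1644 in evolved arrays, and was 499.9 and 580.5 in parental arrays. Every homozygote and evolved array exceeded both parental arrays, and the evolved values lay within the range of the homozygotes. MET3 had the largest change of the 10 genes, 3.34-fold in homozygotes (log2 change 1.74 ± 0.14, adjusted p = 4.4e-06) and 3.26-fold in evolved arrays (1.70 ± 0.18, adjusted p = 1.1e-04), which placed it at rank 16 and rank 9 of all tested genes by rise over the parental arrays. Homozygotes and evolved arrays differed by a log2 value of 0.04 (95% interval -0.28 to 0.35).

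MET14 encodes the kinase that adds a phosphate to the product of Met3. Its signal was 1806 to 2578 in homozygotes with a median of 2125, 1847 and 1730.1 in evolved arrays, and 1209 and 938.3 in parental arrays. No homozygote or evolved array reached down to the parental pair, whose members differed 1.29-fold. The gene rose 2.02-fold in homozygotes (log2 change 1.02 ± 0.12, adjusted p = 7.5e-05) and 1.68-fold in evolved arrays (0.75 ± 0.16, adjusted p = 0.00939). The call in evolved arrays was lost without evolved array 1 (0.70, adjusted p = 0.103) or 2 (0.79, adjusted p = 0.0546). Its log2 difference between homozygotes and evolved arrays was 0.27 ± 0.12 (adjusted p = 0.283).

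MET16 encodes the reductase that turns activated sulfate into sulfite with electrons from thioredoxin. The signal was 407.5 to 709.3 in homozygotes with a median of 538.8, 473.2 and 464.6 in evolved arrays, and 270.5 and 193.6 in parental arrays. The groups stood apart from the parental arrays, although the parental values themselves differed 1.40-fold. MET16 rose 2.35-fold in homozygotes (log2 change 1.23 ± 0.19, adjusted p = 4.4e-04) and 2.05-fold in evolved arrays (1.04 ± 0.24, adjusted p = 0.0169). Leaving out parental array 2 gave 0.99 in homozygotes and leaving out parental array 1 gave 1.47, both called. In evolved arrays the call was lost without evolved array 1 (1.02, adjusted p = 0.123), evolved array 2 (1.05, adjusted p = 0.104) or parental array 2 (0.79, adjusted p = 0.0679), and with arrays weighted by group (adjusted p = 0.0812).

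MET22 encodes a phosphatase that removes adenosine bisphosphate, the by-product of the Met16 step, and that is inhibited by lithium and sodium. Its signal was 413.1 to 743.6 in homozygotes with a median of 494.5, 564.5 and 597.7 in evolved arrays, and 474.1 and 561.4 in parental arrays. Homozygotes surrounded the parental pair, with 4 of them below both parental values. The log2 change against parental arrays was 0.01 in homozygotes (95% interval -0.35 to 0.38, adjusted p = 0.957) and 0.17 in evolved arrays (-0.29 to 0.64, adjusted p = 0.677). The first interval leaves out a 2-fold change in either direction.

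Both sulfite reductase subunit genes rose. MET5, for the beta subunit, had signals of 700.9 to 1088 in homozygotes with a median of 888.0, 975.2 and 1007 in evolved arrays, and 381.8 and 483.7 in parental arrays. MET10, for the alpha subunit, had 666.9 to 1015 in homozygotes with a median of 897.4, 895.9 and 764.6 in evolved arrays, and 264.9 and 323.8 in parental arrays. For either gene the lowest homozygote lay above the higher parental array, and homozygotes and evolved arrays overlapped. MET5 rose 2.06-fold in homozygotes (log2 change 1.04 ± 0.13, adjusted p = 7.7e-05) and 2.31-fold in evolved arrays (1.21 ± 0.16, adjusted p = 3.8e-04). MET10 rose 2.97-fold in homozygotes (1.57 ± 0.14, adjusted p = 5.5e-06) and 2.83-fold in evolved arrays (1.50 ± 0.17, adjusted p = 1.4e-04). Their log2 differences between homozygotes and evolved arrays were -0.16 ± 0.13 for MET5 and 0.07 ± 0.14 for MET10, neither called (limma adjusted p = 0.518 and 0.829).

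MET1 encodes the methyltransferase that diverts a haem precursor into sirohaem synthesis. Its signal was 819.9 to 1079 in homozygotes with a median of 865.3, 787.0 and 750.6 in evolved arrays, and 430.6 and 461.6 in parental arrays. As for SUL2, the 3 groups did not overlap. The gene rose 2.02-fold in homozygotes (log2 change 1.02 ± 0.11, adjusted p = 2.5e-05) and 1.72-fold in evolved arrays (0.79 ± 0.14, adjusted p = 0.00304). Homozygotes and evolved arrays differed by a log2 value of 0.23 ± 0.11 (adjusted p = 0.290).

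MET8 encodes the enzyme that completes sirohaem by oxidation and insertion of iron. Its signal was 128.3 to 256.7 in homozygotes with a median of 159.7, 126.5 and 116.3 in evolved arrays, and 73.0 and 95.3 in parental arrays. The groups again did not overlap, but the lowest homozygote, 6, was only just above the higher evolved array. In homozygotes the change was 1.97-fold (log2 change 0.98 ± 0.20, adjusted p = 0.0032), a call lost when arrays were weighted by the spread of their group (adjusted p = 0.104). In evolved arrays it was 0.54 ± 0.26 on the log2 scale (adjusted p = 0.224), and between homozygotes and evolved arrays 0.44 ± 0.20 (adjusted p = 0.287). SUL2, MET1 and MET8 were the genes for which all homozygotes exceeded both evolved arrays, 3 of 10 against 9.25% of tested genes.

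**Figure D2:**
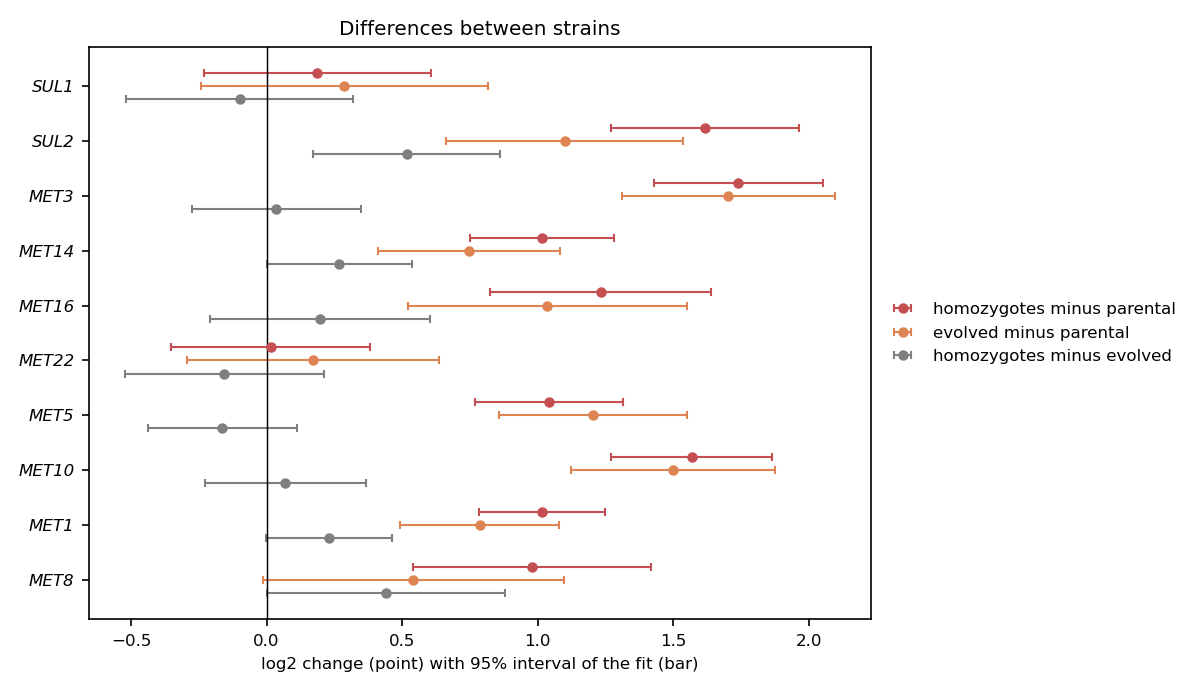
Log2 change of each gene in the 3 comparisons (points) with the 95% interval of the limma fit (bars), for homozygotes minus parental, evolved minus parental and homozygotes minus evolved arrays. Both sets of points against parental arrays lie between 0.01 and 1.74, with SUL1 and MET22 nearest to 0, and those against evolved arrays between -0.16 and 0.52.

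The same homozygotes tended to hold the high or the low signals of several genes. Homozygote 7 was above the homozygote mean for all 10 genes and held the highest signal of 6 of them, and homozygote 5 was above the mean for 9 and highest for MET14, MET10 and MET1. Homozygote 2 was below the mean for all 10 genes and lowest for 7. The median gene stood 1.48 above the parental mean on the log2 scale in homozygote 7, 1.28 in homozygote 5 and 0.84 in homozygote 2, while the same median over all tested genes was -0.06, -0.06 and -0.01 in these arrays. Signal of rRNA was 11.58, 11.90 and 11.60 in homozygotes 7, 5 and 2, and its part in this order was not tested.

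Over the 8 homozygotes, all 45 pairs of the 10 genes had a positive Pearson r, with a median of 0.72, against 0.02 for all pairs of tested genes. The highest r, 0.976, was that of SUL2 with MET3, and the lowest, 0.119, that of SUL1 with MET16. MET22, which did not pass the test against the parental strain, had an r of 0.924 with MET8. Homozygote 7 held the highest signal of both, 743.6 for MET22 and 256.7 for MET8. The next highest homozygotes were at 602.5 for MET22 and 181.9 for MET8, and r without homozygote 7 was not computed. These correlations share the same 8 arrays and are given as a description.

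The SD of log2 signal over the homozygotes was widest for MET8 at 0.32, SUL1 at 0.31 and MET16 at 0.29, and narrowest for MET1 at 0.16. The median over the 10 genes was 0.24, against 0.12 over all tested genes. No gene passed an F test of the homozygote variance against that of the parental and evolved duplicates after adjustment, 0% of tested genes, and none of the 10 had an unadjusted p under 0.05, as 120 genes (2.24%) did. The test rests on 2 pairs of duplicates.

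**Figure D3:**
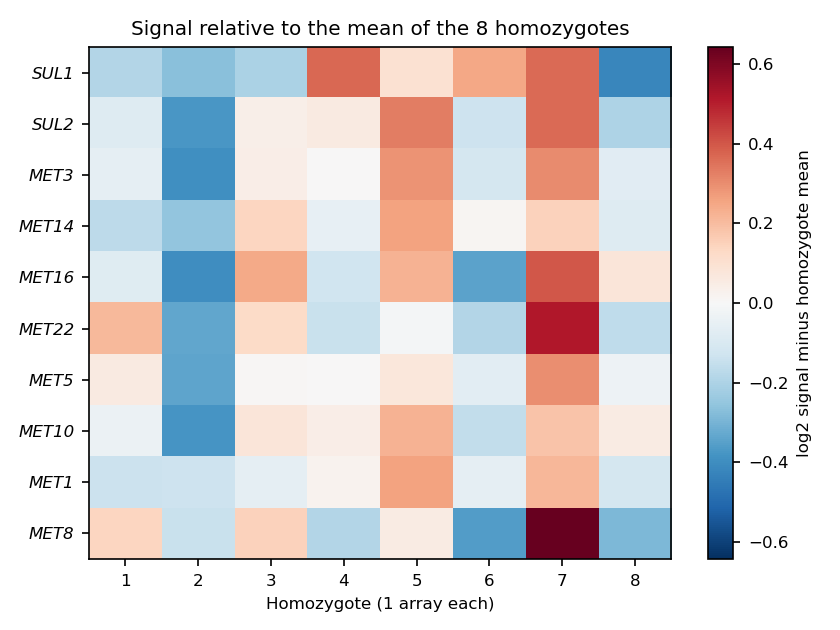
Log2 signal minus the mean of the 8 homozygotes (colour scale) for each of the 10 genes (rows) in each homozygote (columns, 1 array each). The column of homozygote 7 lies above the mean for all 10 genes and that of homozygote 2 below it for all 10.

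Genes around the route were taken from lists named for their place in sulfur metabolism. Of 13 tested genes for the steps after sulfide, 9 rose and 2 fell in homozygotes against parental arrays, with a median log2 change of 0.73. In evolved against parental arrays 8 rose and none fell, with a median of 0.59. Over all tested genes 13.2% were called higher and 18.0% lower in homozygotes, and 3.20% and 5.21% in evolved arrays. The 8 rises in evolved arrays became 5 without evolved array 1. The largest changes in homozygotes were those of STR3, a cystathionine beta-lyase gene (2.54 ± 0.48, adjusted p = 0.00175), MET2, for activation of homoserine (1.97 ± 0.14, adjusted p = 1.9e-06), MET6, methionine synthase (1.88 ± 0.10, adjusted p = 6.1e-08), and SAM2, S-adenosylmethionine synthetase (1.35 ± 0.12, adjusted p = 5.2e-06). STR3 was at 427.2 to 1847 in homozygotes, 310.2 and 316.7 in evolved arrays and 100.2 and 206.1 in parental arrays. In evolved arrays its log2 change of 1.13 was not called (adjusted p = 0.281), while MET6 was at 1.83 ± 0.12 there. The 2 genes that fell in homozygotes were CYS3 (-0.44 ± 0.10, limma adjusted p = 0.00638) and MET7 (-0.36 ± 0.12, adjusted p = 0.0415). Not every fit that left out 1 array kept both falls. In evolved arrays neither was called, with CYS3 at -0.28 ± 0.13 (limma adjusted p = 0.202) and MET7 at 0.02 ± 0.16 (adjusted p = 0.962). CYS3 was at 1148 to 1519 in homozygotes, 1531 and 1565 in evolved arrays, and 1807 and 1962 in parental arrays.

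Of the 6 genes that regulate the route, 5 rose in homozygotes and 2 in evolved arrays, and none fell. The shares over all tested genes were 13.2% higher and 18.0% lower in homozygotes, and 3.20% and 5.21% in evolved arrays. With any 1 array left out, 3 or 4 rose and 0 or 1 fell in homozygotes, and in evolved arrays 0 rose without evolved array 2. MET32, a DNA-binding partner of Met4, was at 240.2 to 472.3 in homozygotes, 215.9 and 197.2 in evolved arrays and 86.3 and 89.6 in parental arrays, so that the groups did not overlap. It rose by a log2 of 1.92 ± 0.20 in homozygotes (adjusted p = 2.5e-05) and 1.23 ± 0.26 in evolved arrays (adjusted p = 0.00961), a call lost without either evolved array, with an adjusted p of up to 0.099. MET31, also on the list of regulators, was at -0.48 ± 0.19 in homozygotes (limma adjusted p = 0.0657) and -0.30 ± 0.24 in evolved arrays (adjusted p = 0.482). MET28, for a cofactor of Met4, rose by 1.19 ± 0.19 in homozygotes (adjusted p = 5.5e-04). In evolved arrays its change of 0.40 ± 0.24 was not called (limma adjusted p = 0.334). MET30, for the ubiquitin ligase subunit that restrains Met4, rose by 0.70 ± 0.08 in homozygotes (adjusted p = 5.3e-05), and its rise of 0.52 ± 0.10 in evolved arrays was lost without evolved array 2 (adjusted p = 0.0925). CBF1, for another DNA-binding partner, was at 0.26 ± 0.09 (adjusted p = 0.0443), a call lost in 10 of the 12 fits that left out 1 array.

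Genes beside the route were set against the 31.2% of all tested genes called in homozygotes and the 8.41% called in evolved arrays. Of 5 listed genes for other sulfur sources and for sulfite export, 4 were tested. None of these passed the test in either comparison with parental arrays. SSU1, the sulfite exporter gene, was among them, at 0.15 ± 0.13 in homozygotes (limma adjusted p = 0.399). Of 7 genes for haem precursor steps and for the thioredoxin that feeds Met16, 1 rose and 1 fell in homozygotes (0 to 2 rises and 0 to 3 falls with 1 array left out) and none was called in evolved arrays. HEM12, whose enzyme takes the precursor of sirohaem towards haem instead, changed by -0.30 ± 0.07 (adjusted p = 0.0068), and by -0.17 (adjusted p = 0.0982) without parental array 2. TRX2, a thioredoxin gene, was at 0.15 ± 0.05 (adjusted p = 0.0462), lost in 10 of 12 such fits, with 0.09 without parental array 1.

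**Figure D4:**
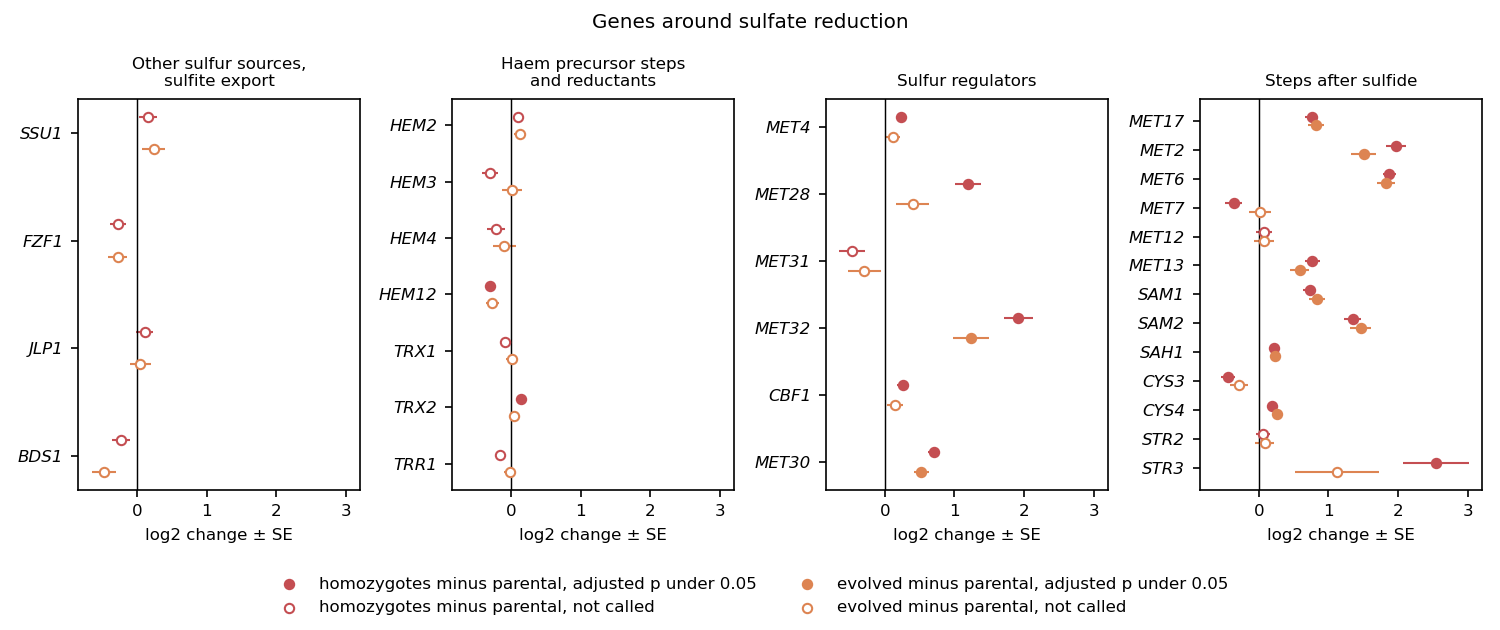
Log2 change ± SE for tested genes around sulfate reduction, in homozygotes minus parental and evolved minus parental arrays, with filled points for an adjusted p under 0.05 and open points for the rest. Steps after sulfide and regulators hold the large rises, up to 2.54 for STR3, and the other panels stay between -0.47 and 0.24.

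The 5 other genes whose pattern over the 12 arrays was most like the mean of the 10 were MHT1, SER33, MXR1, RAD59 and MET17, with a Pearson r of 0.985, 0.981, 0.978, 0.965 and 0.961. MHT1 encodes a methyltransferase that makes methionine from homocysteine, SER33 an enzyme of serine synthesis, MXR1 a methionine sulfoxide reductase, RAD59 a protein of DNA recombination, and MET17 the enzyme that fixes sulfide into homocysteine. Since the parental arrays stood apart from the rest, r over 12 arrays carries that distance too. Over the 8 homozygotes alone r was 0.927, 0.939, 0.902, 0.951 and 0.889 in the same order. Those 8 arrays are among the 12 by which the genes were picked, so this r is no separate check. Against parental arrays RAD59 had a log2 difference of 1.51 in homozygotes and 1.10 in evolved arrays, and MET17 one of 0.76 in homozygotes and 0.82 in evolved arrays. These differences are part of the pattern by which the genes were picked and are given without a test.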

How the data were processed

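The authors deposited 1 linear intensity value for each probe set on each array. MAS5 is the tool named, without version or role, per the submitters' processing notes. Arrays were hybridised with biotin-labelled cRNA from 100 ng of total RNA, per the labels' protocols. How arrays were scaled to each other and which genome build the array uses are not given in the sources used here, and coordinates are left out. No scanner files or detection calls were used here.

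Genes were assigned from the platform's annotation, with symbols from the R64 gene table. Among 10928 probe sets, 5498 had 1 S. cerevisiae gene, 1746 had 1 S. pombe gene, 1 had several genes, 213 were controls and 3470 were unnamed here. For the 47 genes with several probe sets, an unshared one was preferred, then the brightest. Background was the 90th percentile of the S. pombe probe sets of an array, and the 5352 genes above it on at least 2 arrays were tested, all 10 sulfate genes among them.

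Intensities were log2 transformed (values under 1 set to 1) and not normalized again. The fit was limma 3.58.1 in R 4.3.3, with 1 mean per group over all 12 arrays, a variance trend, and two-sided tests with Benjamini-Hochberg adjustment at 0.05. Because groups share 1 spread, p-values rest mostly on the 8 homozygotes, and the parental arrays spread more widely, so SEs against them may be too small. Folds are ratios of geometric means. The code was tested on simulated data. The 10 genes and the other lists were chosen with earlier results of these data known. Named genes are the 10, in each further list up to 4 called genes with the largest change in homozygotes against parental arrays, and the 5 most alike genes. SSU1, STE2, STE3, CYS3, MET7 and MET31 were named after their values were seen. Planned searches of promoters and comparisons of proteins were not run because no sequences were used here.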

Additional observations from a re-analysis of the deposited data

How the results depend on the processing

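Scaling, the filter on dim genes, the floor and the variance trend left the counts of 8, 7 and 0 called sulfate genes as they were in the 3 comparisons. With arrays weighted by the spread of their group (0.98 for homozygote, 3.69 for evolved and 0.29 for parental arrays), calls over all genes were 325 in homozygotes against parental arrays (7 of the 10 sulfate genes), 184 in evolved against parental arrays (6 of the 10) and 1549 in homozygotes against evolved arrays (4 of the 10, which were SUL2, MET14, MET1 and MET8). Each sulfate gene has 1 probe set, so another choice of probe set could not change it. The high weight of evolved arrays rests on their closeness, and the low weight of parental arrays on their wide spread. Within these pairs the median absolute log2 difference was 0.0589 and 0.221. In evolved against parental arrays, 133 genes were called with the evolved arrays averaged as 1 sample, and 46 genes with 3 of the 10 in a fit to these 4 arrays alone, which uses fewer samples.

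With 1 array left out at a time, calls ran from 1394 to 1677 genes in homozygotes against parental arrays (8 of the 10 each time), from 118 to 863 in evolved against parental arrays (4 to 7 of the 10) and from 0 to 29 in homozygotes against evolved arrays (0 of the 10), the 29 without homozygote 8. Of the 4 genes for other sulfur sources and sulfite export, 1 was called in some of these fits. A lone array left in a group is assumed to vary like the other groups.

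The parental and evolved replicate numbers name arrays and no label pairs them. Their deviations from the group means had an r of -0.05 over genes. With the replicate number as a replicate block, 154 genes and 5 of the 10 were called in evolved against parental arrays, where MET14 (adjusted p = 0.0605) and MET1 (adjusted p = 0.0575) missed the threshold. Without both evolved arrays, a setting added after seeing the data, 1474 genes and 8 of the 10 were called in homozygotes against parental arrays.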

Other observations

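The 10 genes lie on chromosomes II, VI, X, XI, XII, XV and XVI, read from the R64 gene table, and none is the direct neighbour of another. Of their 20 direct neighbours, 18 were tested in homozygotes against parental arrays, and 6 rose and 4 fell, with a median log2 change of -0.01. Over all tested genes 31.2% were called, 13.2% higher and 18.0% lower, a smaller share than among these neighbours, and the difference was not tested. The largest of these changes, chosen after their values were seen, were those of IML1 next to MET5 (0.70 ± 0.14) and of TTI2 on its other side (-0.62 ± 0.08). The neighbours of MET10, PTR3 and SMC2, were at -0.02 ± 0.10 and -0.09 ± 0.09.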
